A study of Mus musculus with 5 samples.

Results

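The genes described here are 10 intracellular parts and targets of canonical WNT signalling, Ctnnb1, Apc, Axin1, Axin2, Lef1, Tcf7, Tcf7l1, Tcf7l2, Nkd1 and the co-receptor gene Lrp6. They were chosen by name, as the rows of the full deposited table that carry these symbols, and all 10 of 10 were found among 22653 genes with a row of their own. RNA was sequenced from mouse forelimbs at E11.5, with 47 to 48 somites, from 2 Prmt5cKO and 3 control samples, described as biological replicates, all of mixed C57BL/6 and Swiss Webster strain. Prmt5cKO embryos carried Prx1Cre+/- and Prmt5c/c, so that the conditional allele of Prmt5, which encodes an arginine methyltransferase, met a recombinase active in limb bud mesenchyme. The driver acts in mesenchyme and not in the ectoderm, which the samples also hold. The controls are labelled only as control, and their alleles are not stated in these sources. The values are 1 FPKM (fragments scaled to the length of a transcript and the size of a library) for each gene and genotype, as the authors computed it. No value below therefore carries an SD, the depth of each sample is unknown, and no test over samples could be made here.

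In canonical WNT signalling, a WNT protein binds a Frizzled receptor with Lrp5 or Lrp6, and this stops a cytoplasmic complex of APC, AXIN and the kinases GSK3 and CK1 from marking beta-catenin for destruction. Beta-catenin then enters the nucleus and joins the TCF/LEF factors, which bind DNA through an HMG box and otherwise keep the same genes silent with co-repressors. Genes such as Axin2, Nkd1 and Lef1 are switched on by the pathway, and AXIN2 and NKD1 feed back to dampen it. In the limb bud the pathway acts in the ectoderm, where it sustains the apical ridge, and in the mesenchyme, where it holds back cartilage formation.

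The largest FPKM ratios among the members as deposited, in both directions, were at the TCF/LEF genes Tcf7 and Tcf7l2, and the family's coding sequences are close relatives. Under quantile normalization the lowest ratio was instead that of Ctnnb1, at -0.33 on the log2 scale beside -0.17 for Tcf7l2. A stretch of 60 coding bases related in all 4, which lies in the HMG box, is shown to let the family be compared. It had the most bases common to all 4 among windows within a single exon, with each other gene matched to Tcf7l2. The sequences run 5′ to 3′ on the coding strand in GRCm38 from GENCODE M21, with capitals at the 16 positions where the genes differ.
Tcf7l2 (chr19:55919527-55919586, plus strand): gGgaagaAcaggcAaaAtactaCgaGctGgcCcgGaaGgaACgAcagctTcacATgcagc
Tcf7 (chr11:52256772-52256831, minus strand): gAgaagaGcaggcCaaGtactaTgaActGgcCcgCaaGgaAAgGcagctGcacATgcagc
Lef1 (chr3:131200311-131200370, plus strand): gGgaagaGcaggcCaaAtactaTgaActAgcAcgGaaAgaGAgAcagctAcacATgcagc
Tcf7l1 (chr6:72631044-72631103, minus strand): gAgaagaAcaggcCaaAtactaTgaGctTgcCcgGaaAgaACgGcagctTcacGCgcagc
Within this stretch 44 of 60 bases were the same in all 4 genes, and pairs shared between 49 (Lef1 and Tcf7l1) and 52 (Tcf7l2 and Tcf7l1). No run of 50 bases was common to the transcripts of any pair. The read length is not stated in these sources.

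Prmt5 stood at 12.5 FPKM in Prmt5cKO forelimbs and 40.9 FPKM in control forelimbs, and the authors' deposited table gives it a log2 fold of -1.71 and lists its q-value, an adjusted p, as 0. This value covers the whole gene and all cells of the limb. Xist stood at 0.392 FPKM in Prmt5cKO and 87.3 FPKM in control, and the Y-linked Ddx3y at 21.8 FPKM in Prmt5cKO and 0.0840 FPKM in control. Embryo sex and the loss of Prmt5 cannot be told apart for any difference below. None of the 10 genes lies on a sex chromosome. The table also leaned downwards. Among 11674 genes that averaged 1 FPKM or more, the median log2 ratio of Prmt5cKO over control was -0.13, and members are also given relative to it.

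Of the 10 WNT genes, 1 fell, none rose, 7 did not pass the authors' q under 0.05 and 2 were not tested by the authors, as the deposited table lists them with a fold of 0 and a q of 1. The gene that fell was Tcf7l2. Over all 10617 genes that the authors tested and that reached a mean of 1 FPKM, 19.3% fell and 4.83% rose by the same rule. The 1 fall among 8 tested members (12.5%) is thus no more than the share over all genes. The count of rises is 0 at the authors' q under 0.1 as well, and the tables used here hold no unadjusted p. Unadjusted for that shift, 6 members were lower and 4 higher in Prmt5cKO, and relative to the median of all genes 4 were lower and 6 higher. The median log2((Prmt5cKO FPKM + 1)/(control FPKM + 1)) of the 10 lay 0.02 above that of all genes. The farthest of the 10 from a ratio of 1 was Tcf7, at 1.34-fold.

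**Figure D1:**
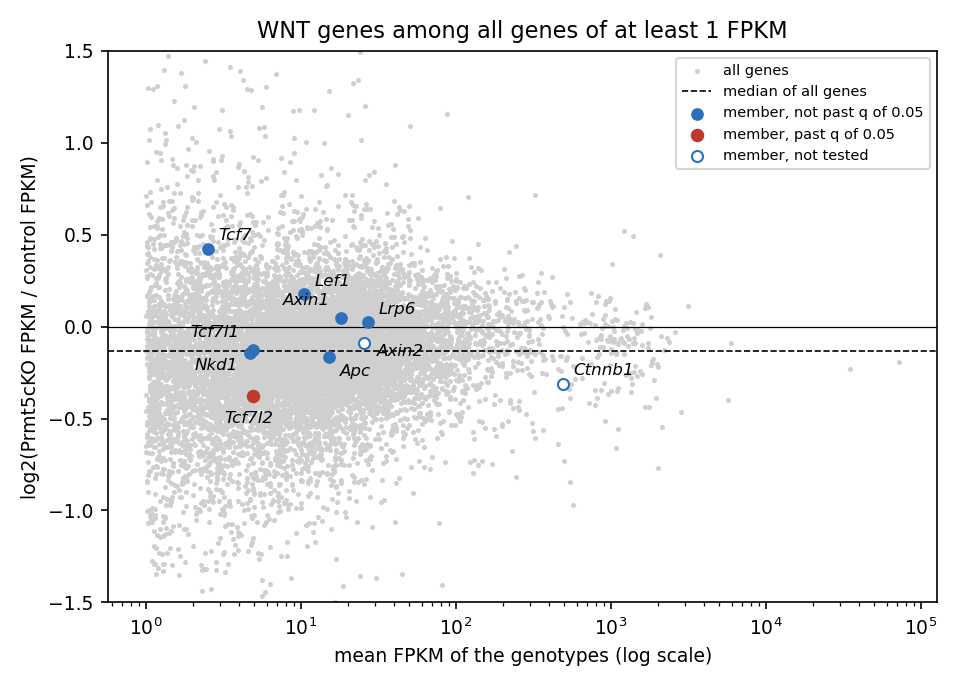
Each point is a gene with a mean of at least 1 FPKM. The horizontal axis is its mean FPKM over the genotypes on a log scale and the vertical axis its log2 ratio of Prmt5cKO over control. Grey points are all such genes except 17 that stood at 0 in 1 genotype and have no log2 ratio. Of the genes with a ratio, 60 lie beyond 1.5 either way and outside the axis. Tcf7l2 is the single member past the authors' q of 0.05, open circles are the 2 untested members, and all 10 lie within the main cloud between -0.38 (Tcf7l2) and 0.42 (Tcf7).

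The receptor stood at like levels in the genotypes. Lrp6, the co-receptor that takes up the destruction complex once WNT is bound, had 27.2 FPKM in Prmt5cKO and 26.8 FPKM in control (log2 fold 0.02 at q = 0.922, from the authors' deposited table). Its ratio was higher than that of 73.2% of all genes, and relative to their median it lay at 0.15 on the log2 scale. It is encoded on the minus strand of chromosome 6 (134446476 to 134566965, GRCm38).

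The destruction complex members showed small differences, none of which passed. Apc, the scaffold that presents beta-catenin to the kinases, had 14.3 FPKM in Prmt5cKO and 16.1 FPKM in control (log2 fold -0.17 at q = 0.204, from the authors' deposited table). Axin1, the scaffold that most cells make at a steady level, had 18.4 FPKM in Prmt5cKO and 17.8 FPKM in control (log2 fold 0.05 at q = 0.745, from the authors' deposited table). Relative to the median of all genes Apc lay at -0.03 and Axin1 at 0.18 on the log2 scale. Axin2, the related scaffold that WNT induces, had 24.7 FPKM in Prmt5cKO and 26.3 FPKM in control, a ratio of 0.939 or -0.09 on the log2 scale. The authors did not test it. It spans chromosome 11 from 108920349 to 108950783 on the plus strand, where the antisense gene Gm11670 shares 209 exonic bases. Its sign turns with the scaling, because relative to the median of all genes it lay 0.04 higher. Axin1 and Axin2 summed to 43.2 FPKM in Prmt5cKO and 44.2 FPKM in control, and Axin1 over Axin2 was 0.746 in Prmt5cKO and 0.677 in control.

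Ctnnb1, which encodes beta-catenin, the messenger of the pathway and also a link between cadherins and the cytoskeleton, was by far the most abundant member. It had 438 FPKM in Prmt5cKO and 543 FPKM in control, 16.1 times the next member in Prmt5cKO and 20.3 times in control. The Prmt5cKO value was 80.7% of the control value, or -0.31 on the log2 scale and -0.18 relative to the median of all genes. The authors' table gives no fold and no test for it, so whether this difference exceeds the spread between samples is unknown. Of 33 other genes whose mean lay within 1.2 times that of Ctnnb1, 27.3% were untested in the same way, against 9.05% of all genes of at least 1 FPKM. The gene spans chromosome 9 from 120929216 to 120960507 on the plus strand. Its transcripts overlap exons of Ulk4 on the opposite strand by 759 bases in GENCODE M21. Ulk4 stood at 1.92 FPKM in Prmt5cKO and 2.59 FPKM in control, far under Ctnnb1. The FPKM is an RNA level and says nothing of how much beta-catenin protein was stabilised.

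**Figure D2:**
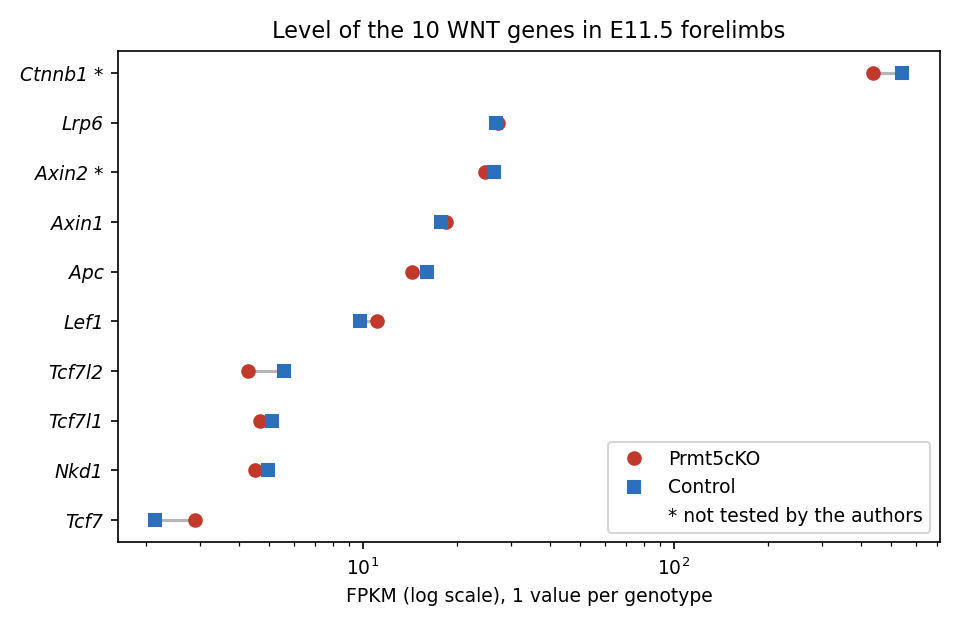
Each line is a member, ordered by its control level, with the FPKM on a log scale. Circles are Prmt5cKO and squares control, 1 value per genotype with no error, and an asterisk marks the 2 members not tested by the authors. The levels run from 2.88 FPKM in Prmt5cKO and 2.15 FPKM in control for Tcf7 to 438 FPKM in Prmt5cKO and 543 FPKM in control for Ctnnb1.

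The order of the levels was nearly the same in the genotypes. Ctnnb1 was followed by Lrp6, Axin2, Axin1, Apc and Lef1 in both, and Tcf7 was lowest in both. Between them Tcf7l1, Nkd1 and Tcf7l2 followed in this order in Prmt5cKO, and Tcf7l2, Tcf7l1 and Nkd1 in control. These 3 lay between 4.28 and 4.67 FPKM in Prmt5cKO and between 4.95 and 5.56 FPKM in control. Without a spread over samples, neighbours in the order cannot be separated. All 10 exceeded 1 FPKM in both genotypes. Their places among the 11674 genes ranged from the 17.4th percentile in Prmt5cKO and the 10.5th in control (Tcf7) to the 98.5th in Prmt5cKO and the 98.7th in control (Ctnnb1).

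Of the 4 TCF/LEF genes, 1 passed the authors' threshold. Tcf7l2, a factor that can activate or repress depending on beta-catenin, had 4.28 FPKM in Prmt5cKO and 5.56 FPKM in control. It fell to 76.9% of the control value, a log2 fold of -0.38 at q = 0.000271 from the authors' deposited table, and its log2 ratio lay at -0.25 relative to the median of all genes. Tcf7, which acts mostly as an activator, had 2.88 FPKM in Prmt5cKO and 2.15 FPKM in control. The authors' deposited table gives Tcf7 a log2 fold of 0.42, larger in size than that of Tcf7l2, at q = 0.103, which did not pass. The ratio of Tcf7 was higher than that of 96.3% of all genes, and that of Tcf7l2 higher than that of 18.8%. Lef1, an activator and itself a WNT target, had 11.1 FPKM in Prmt5cKO and 9.80 FPKM in control and did not pass (log2 fold 0.18 at q = 0.142, from the authors' deposited table). Tcf7l1, known mainly as a repressor, had 4.67 FPKM in Prmt5cKO and 5.10 FPKM in control and did not pass either (log2 fold -0.13 at q = 0.616, from the authors' deposited table). Antisense genes share 1208 exonic bases with Lef1 (Gm43352) and 179 with Tcf7l1 (Gm15401), none with Tcf7l2 or Tcf7, and without a known strand setting such reads cannot be told apart. Relative to the median of all genes Tcf7l1 lay at 0.00, so its sign rests on the scaling. Lef1 lay at 0.31 and Tcf7 at 0.56 on that scale, both larger in size than the -0.25 of Tcf7l2.

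Genes of like level give a scale for these differences. Of 692 tested genes with a mean within 1.2 times that of Tcf7, 236 had a log2 fold of at least its size in either direction, and 58.5% of these passed. Of 909 tested genes as near the level of Tcf7l2, 250 differed by at least its size, and 72.4% of these passed. The genes near Tcf7l2 that passed had a median absolute log2 fold of 0.57, so the fall of Tcf7l2 was among the smaller ones called at its level.

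As deposited, the sum of the 4 factors was nearly equal in the genotypes, at 22.9 FPKM in Prmt5cKO and 22.6 FPKM in control. Its log2 ratio of 0.02 stands beside the median of -0.13 over all genes, so relative to that median the sum was higher in Prmt5cKO. The share of each factor differed. Tcf7l2 made up 18.7% of that sum in Prmt5cKO and 24.6% in control. Lef1 made up 48.3% in Prmt5cKO and 43.3% in control, and Tcf7 12.6% in Prmt5cKO and 9.50% in control. Tcf7l1 made up 20.4% in Prmt5cKO and 22.6% in control. Lef1 over Tcf7l2 was 2.59 in Prmt5cKO and 1.76 in control. Shares of a sum of 2 pooled values have no error here, and the difference between Tcf7l2 and the other 3 was not tested. In bulk tissue, fewer cells of a type and less RNA per cell cannot be told apart.

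**Figure D3:**
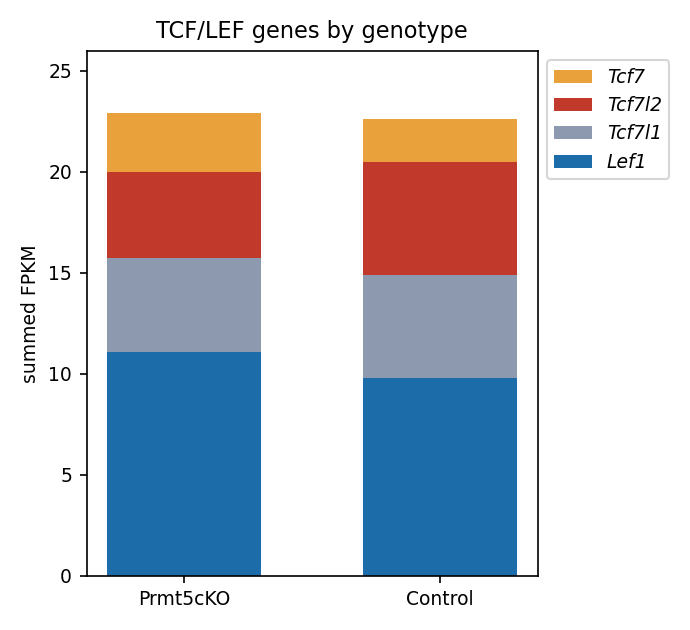
The bars stack the FPKM of Lef1, Tcf7l1, Tcf7l2 and Tcf7 in Prmt5cKO (left) and control (right), 1 value per genotype with no error. The total is 22.9 FPKM in Prmt5cKO and 22.6 FPKM in control, with a smaller Tcf7l2 part and larger Lef1 and Tcf7 parts in Prmt5cKO.

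The single FPKM of Tcf7l2 stands for a gene with more than 1 annotated start. The gene spans chromosome 19 from 55741820 to 55933654 on the plus strand, with 22 annotated transcripts in GENCODE M21. RefSeq (GRCm38.p6) gives 2 starts, and the 250 bases before each are printed because the FPKM that fell does not separate them. How much RNA came from either was not measured. The core TCF/LEF motif, CTTTGNN with A or T in both last places, was searched on both strands, and capitals mark a match, none of which overlaps another.
Tcf7l2 first start (chr19:55741560-55741809, plus strand): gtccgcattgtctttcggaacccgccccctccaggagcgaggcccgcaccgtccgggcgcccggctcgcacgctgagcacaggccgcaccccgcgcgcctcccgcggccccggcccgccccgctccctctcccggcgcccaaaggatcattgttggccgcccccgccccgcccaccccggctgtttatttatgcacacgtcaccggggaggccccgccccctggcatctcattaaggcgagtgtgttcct
Tcf7l2 inner start (chr19:55895071-55895320, plus strand): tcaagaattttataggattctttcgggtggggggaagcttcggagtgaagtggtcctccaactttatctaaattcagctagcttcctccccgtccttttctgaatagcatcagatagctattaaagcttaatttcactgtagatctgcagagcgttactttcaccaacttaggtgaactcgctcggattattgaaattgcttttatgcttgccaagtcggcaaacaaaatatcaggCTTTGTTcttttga
The first window had no match, 72.8% G and C and 30 CG pairs. The inner window had 1 match, CTTTGTT starting 14 bases before the start, with 40.8% G and C and 7 CG pairs. Of 27025 genes, 14.9% had a match in the 250 bases before their most upstream RefSeq start. Windows of 7 members were examined here, without those of Apc, Axin1 and Lrp6, and 0 of 7 had a match there. Among their inner starts, 1 of Lef1 also had a match, TACAAAG, beginning at -147 from the start. A match describes letters only, and these windows leave out introns and distant enhancers.

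Nkd1, a feedback inhibitor that binds Dishevelled, had 4.49 FPKM in Prmt5cKO and 4.95 FPKM in control (log2 fold -0.14 at q = 0.653, from the authors' deposited table). Relative to the median of all genes it lay at -0.01. The 3 members best known as targets of the pathway, Axin2, Nkd1 and Lef1, thus stood at 93.9%, 90.5% and 113% of control. Lef1 and Nkd1 did not pass the authors' threshold, and Axin2 was not tested.

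The other genes of the pathway were counted in 6 lists of known function, leaving out the 10 members. The lists were chosen with earlier results of these data known, so their shares are not independent of the values and were not tested. In the destruction complex and its turnover, 2 of 21 tested genes fell and 1 rose. Btrc, the receptor of the ligase that tags beta-catenin, had 8.83 FPKM in Prmt5cKO and 11.1 FPKM in control, and Apc2, a relative of Apc close to the level minimum, fell too (log2 folds -0.33 and -0.41, from the authors' deposited table). The deubiquitinase gene Usp7 had 40.3 FPKM in Prmt5cKO and 35.8 FPKM in control (log2 fold 0.17, from the authors' deposited table). The kinase genes did not pass. Gsk3b stood at 16.6 FPKM in Prmt5cKO and 18.3 FPKM in control, and Csnk1a1 at 192 FPKM in Prmt5cKO and 195 FPKM in control. The 9.52% of falls and 4.76% of rises in this list stand beside 19.3% and 4.83% over all tested genes.

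Among membrane receptors and Dishevelled genes, 6 of 20 tested fell and 2 rose, both larger shares than the 19.3% and 4.83% of all tested genes. These shares rest on few genes of a list chosen with earlier results of these data known, and are a description only. The median log2 ratio of the list was 0.004 over the median of all genes. By the authors' deposited table the Frizzled genes Fzd9, Fzd5 and Fzd2 had log2 folds of -0.86, -0.60 and -0.57, with Fzd9 just under the q threshold. Fzd2, the most abundant of these, had 36.5 FPKM in Prmt5cKO and 54.2 FPKM in control. Csnk1g1, a kinase that acts on Lrp6, and Fzd10 rose, with log2 folds of 0.26 and 0.19 from the authors' deposited table. Lrp5, the relative of Lrp6, did not pass, at 8.09 FPKM in Prmt5cKO and 7.76 FPKM in control.

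Of the nuclear co-activators and co-repressors of TCF, 5 of 28 tested fell (17.9%, beside 19.3%) and 1 rose (3.57%, beside 4.83%), with 8 further genes untested. The Groucho genes Tle6 and Tle2 and Hic1, a repressor that binds TCF, fell, with log2 folds of -1.29, -0.96 and -0.59 from the authors' deposited table. Tle2 had 1.54 FPKM in Prmt5cKO and 2.98 FPKM in control. Tle6 was close to the level minimum, with 0.758 FPKM in Prmt5cKO and 1.85 FPKM in control. Bcl9 and Pygo2 act as a pair that bridges beta-catenin to chromatin, and they went opposite ways. Bcl9 had 11.4 FPKM in Prmt5cKO and 15.6 FPKM in control, and Pygo2 21.8 FPKM in Prmt5cKO and 17.6 FPKM in control (log2 folds -0.45 and 0.31, from the authors' deposited table). Aes, a short Groucho relative, was the last that fell, with 70.3 FPKM in Prmt5cKO and 86.3 FPKM in control.

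Feedback inhibitors and common WNT targets had 6 rises and 6 falls among 30 tested genes. Sall4, a stem cell factor, Cd44, a hyaluronan receptor, and Jag1, a Notch ligand, rose, with log2 folds of 0.85, 0.73 and 0.64 from the authors' deposited table. Jag1 had 32.3 FPKM in Prmt5cKO and 20.8 FPKM in control. Zcchc12, Dact1 and Dkk2 fell, with log2 folds of -1.15, -0.69 and -0.50 from the authors' deposited table. Dact1, an inhibitor that binds Dishevelled, had 5.34 FPKM in Prmt5cKO and 8.63 FPKM in control. The 20.0% of rises stands beside 4.83% over all tested genes, and the 20.0% of falls beside 19.3%. As the list was chosen with earlier results of these data known, this larger share of rises is a description only. Its median log2 ratio was 0.05 over the median of all genes. The risen Sp8 (log2 fold 0.48, from the authors' deposited table) is also counted below as a marker of the apical ridge. Mycn rose too, with 44.5 FPKM in Prmt5cKO and 31.8 FPKM in control, while Ccdc80 and Lgr4 fell (log2 folds 0.48, -0.49 and -0.44, from the authors' deposited table). Of the other inhibitor genes, Apcdd1 rose, with 21.7 FPKM in Prmt5cKO and 19.5 FPKM in control, and Wif1 fell, with 11.4 FPKM in Prmt5cKO and 16.1 FPKM in control. Znrf3, Notum and Nkd2 did not pass. Notum stood at 5.09 FPKM in Prmt5cKO and 5.39 FPKM in control.

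Of 16 tested adherens junction partners of beta-catenin 4 fell (25.0%, beside 19.3%) and 1 rose (6.25%, beside 4.83%). The list as counted includes Pvr, a gene that was not listed and was taken up through an alternative name of Nectin2. Pvr did not pass. Vcl, which anchors junctions to actin, had 25.9 FPKM in Prmt5cKO and 35.0 FPKM in control, and Cdh11, the main cadherin of limb mesenchyme, 144 FPKM in Prmt5cKO and 177 FPKM in control (log2 folds -0.44 and -0.30, from the authors' deposited table). Mllt4, which encodes afadin, rose and the nectin gene Pvrl3 and N-cadherin gene Cdh2 fell, with log2 folds of 0.37, -0.30 and -0.20 from the authors' deposited table. Of 23 tested genes of planar cell polarity and beta-catenin-independent signalling, 6 fell (26.1%, beside 19.3%) and 1 rose (4.35%, beside 4.83%), with 7 more untested. Fuz, Wdpcp and Invs fell, with log2 folds of -1.32, -0.88 and -0.71 from the authors' deposited table. Fuz had 1.63 FPKM in Prmt5cKO and 4.06 FPKM in control, while Intu, a partner of Fuz and Wdpcp, did not pass, at 5.02 FPKM in Prmt5cKO and 5.54 FPKM in control. Over the 6 lists the medians lay between -0.03 (junction partners) and 0.06 (nuclear cofactors) relative to all genes.

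**Figure D4:**
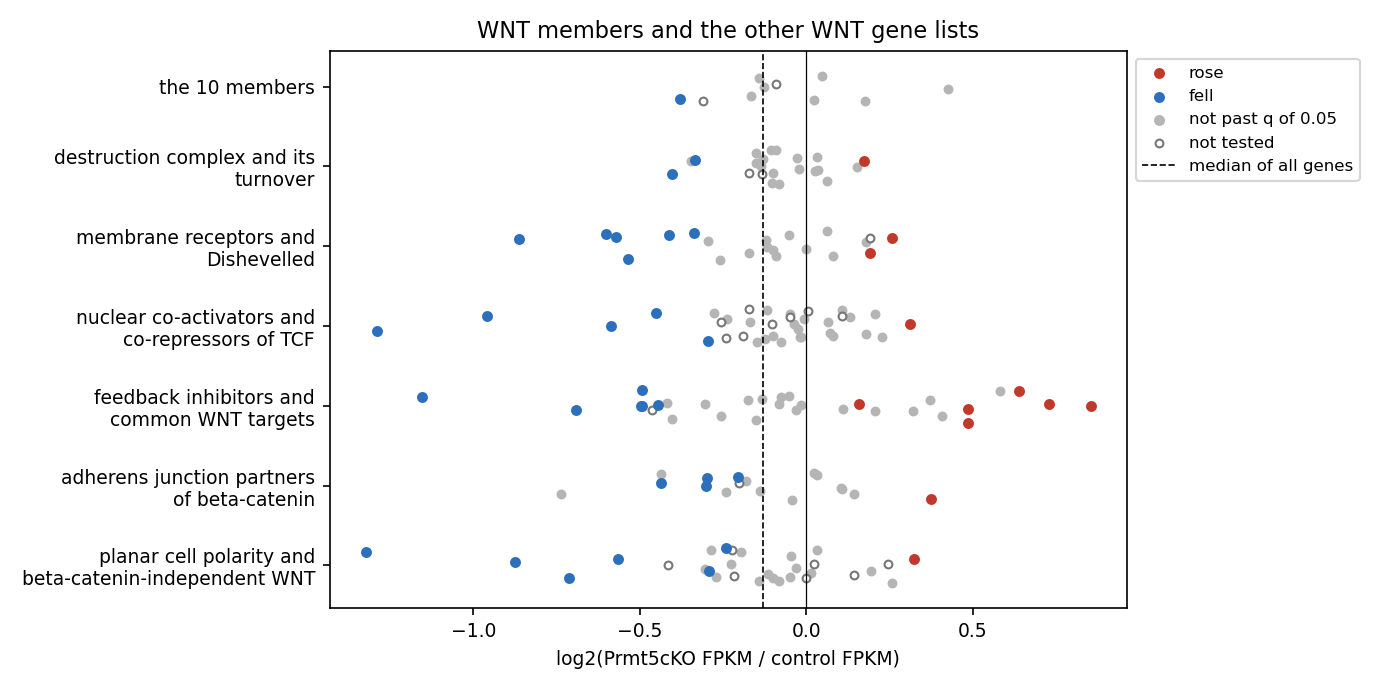
Each point is a gene with a mean of at least 1 FPKM, placed by its log2 ratio of Prmt5cKO over control, with the 10 members in the top row and 6 other WNT lists under it. Red points rose, blue points fell, grey points did not pass the authors' q of 0.05 and open points were not tested. The members span -0.38 to 0.42, while single genes of the lists reach -1.32 (Fuz) and 0.85 (Sall4).

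WNT genes are active in several tissues of the limb, so markers of these are given beside them. Over all tested genes 19.3% fell and 4.83% rose by the same rule, and the counts stand beside these shares. Of 9 tested genes of limb mesenchyme none rose or fell, and the list summed to 615 FPKM in Prmt5cKO and 619 FPKM in control. Macrophage markers rose in 9 of 11 (81.8%), with sums of 70.6 FPKM in Prmt5cKO and 37.5 FPKM in control. Ridge markers rose in 4 of 10 (40.0%, Fgf8, Rspo2, Sp6 and Sp8), with sums of 56.8 FPKM in Prmt5cKO and 42.3 FPKM in control. Surface ectoderm markers had 2 rises (16.7%, Epcam and Tfap2a) and 1 fall (8.33%, Krt15) in 12. They summed to 200 FPKM in Prmt5cKO and 207 FPKM in control. Endothelial markers had 3 falls in 10 tested (Erg, Clec14a and Cd34), muscle markers 3 in 10 (Myh3, Tnnt1 and Mef2c), nerve markers 2 in 6 (Gfra3 and Erbb3) and red cell markers 1 in 8 (Alas2). Their sums were 109, 137, 29.5 and 7354 FPKM in Prmt5cKO and 119, 165, 32.0 and 9241 FPKM in control. Of the muscle genes, Pax3 averaged under 1 FPKM and was not counted, but had 1.14 FPKM in Prmt5cKO and 0.525 FPKM in control (log2 fold 1.11 at q = 0.00187, from the authors' deposited table). Lbx1 and Myf5 did not pass, with log2 folds of 0.50 and 0.37 from the same authors' deposited table. No marker of any list was listed at 0. The part of these cell types in the values of Tcf7l2, Tcf7 or Ctnnb1 was not tested.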

How the data were processed

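Forelimb RNA of 2 Prmt5cKO and 3 control samples, grouped by their titles, was made into Illumina libraries from TRIzol extracts, per the labels' protocols. The submitters' processing notes list Cufflinks 2.1.1, Bowtie2 2.1.0 and TopHat2 2.0.10 with the build mm10 but neither roles nor settings. The annotation, the read length, the strand setting, the way replicates were combined and the test are not given in these sources. Per the file headers, the deposited table gives 1 FPKM per genotype, a log2 fold change (Prmt5cKO over control) and a q-value, an adjusted p. Over 20663 rows the deposited log2 values matched the log2 of the FPKM ratio to within 1.28e-05. Rows listing a fold of 0 and q of 1 were taken as untested by the authors. Of 28092 rows, 4367 (15.5%) name no gene, with 2.08% of the summed FPKM in Prmt5cKO and 1.94% in control, and were left out, as were 597 rows of several genes. Each symbol kept its row of highest mean; no member has a repeated row or one shared with another gene. A shorter deposited table of 208 rows holds none of the members and was not used.

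A gene was called where its mean over the genotypes was at least 1 FPKM and the authors' q under 0.05. No test was made here: with 1 value per genotype the planned limma fit on log2(FPKM + 1), each omission of a replicate and the replicate block could not be run. Whether the authors' q measures the spread between samples is unknown. FPKM corrects for length and total, not for composition. The members and the gene lists were chosen with earlier results of these data known. Named are the members, Prmt5, the called genes of each list with the largest fold, at most 3 a direction, and all of a small count. Xist, Ddx3y, the overlapping genes, Pax3 and list genes that did not pass were chosen after their values were seen. So were Sp8 among the targets, Apcdd1, Wif1, Mycn, Ccdc80 and Lgr4. Genes, exons, shared 50-base runs and coding bases came from GENCODE M21 (GRCm38, the same assembly as mm10) and windows before starts from RefSeq. The steps were run with Python 3.11.15 and pandas 2.3.3. The code that calls genes and takes the median log2 ratio was run on simulated data. The expected calls there followed the same rule, so this checks the code and not the rule. Rescaling and quantile normalization were not run on simulated data.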

Additional observations from a re-analysis of the deposited data

How the results depend on the processing

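No paired analysis was possible because the deposited columns hold 1 value per genotype; the omission of single replicates and the replicate block were not run for the same reason. Of 10 alternative settings, those of pseudocount and scale cannot change a call, since the q-values are the authors' own. With a mean of at least 5 FPKM or changes of at least 1.5-fold only, the count of members that fell was 0, since Tcf7l2 has a mean just under 5 FPKM and fell by less than 1.5-fold; the count was 1 in the other settings and no member rose in any. At 1.5-fold, 723 of all genes fell and 169 rose, and the lists held 0 calls (destruction complex), 2 (receptors), 3 (nuclear cofactors), 5 (feedback and targets), 0 (junction partners) and 3 (planar polarity). At a mean of 5 FPKM the nuclear cofactors held 3 and planar polarity 4. At q under 0.01 the destruction complex held 1, the receptors 4 and the nuclear cofactors 3, and at q under 0.1 the destruction complex held 5. The Tcf7l2 log2 ratio ranged from -0.38 to -0.17, lowest in size under quantile normalization. Rescaling by the median ratio turned the sign of Axin2 (to 0.04) and Tcf7l1 (to 0.00), and quantile normalization that of Tcf7l1 (to 0.04) and Nkd1 (to 0.02). None of these 3 was called. Among genes at least 1.5-fold from a ratio of 1, 80.7% were lower in Prmt5cKO as deposited and 60.3% after rescaling. Depth per sample is unknown, so what it limits cannot be stated.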
